A study of Mus musculus with 3 samples.

Results

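The cells described here are stromal cells of the mouse testis in which UMIs (unique molecular identifiers, 1 per captured RNA molecule) of Cyp26b1, Col4a3 and Col4a4 outnumbered those of 3 other stromal gene sets. There were 3486 such cells, called members below, among 10539 stromal cells and 24252 cells in all. A stromal cell had at least 3 of Pdgfra, Dcn, Col1a1, Col1a2, Col3a1 and Tcf21, no UMI of Ptprc, Pecam1 or Myh11, and less than 0.3% of its UMIs from the Leydig enzymes Cyp11a1, Cyp17a1 and Hsd3b6. A member had at least 2 UMIs of the Cyp26b1 set, and more of them than of Dlk1, Igf1 and Col15a1, of Mfap5, Igfbp6 and Pi16, or of Thbd, Cd248 and Cd34. The members were thus chosen by their own counts of these genes, so every comparison of members with other stroma is a description.

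All mice were a model of azoospermia made with busulfan, which alkylates DNA and depletes the germ line. The PBS group was injected with phosphate-buffered saline. The EXO group received blood exosomes, which are small membrane vesicles, from wild-type mice, and the dEXO group received blood exosomes from mice with a disturbed gut microbiota. Each group was 1 library of single cells, so no difference between groups has a replicate check and no p-value was computed. Strain, age, doses, times and how many animals went into each library are not given in the sources used here.

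CYP26B1 is a cytochrome P450 that breaks down retinoic acid, the signal that drives germ cells into differentiation and meiosis, and in the testis it is known for limiting how much of that signal reaches them. COL4A3 and COL4A4 are chains of type IV collagen that join with COL4A5 into the network of specialised basement membranes, best known from the kidney glomerulus. CCN2 is a matricellular protein and a standard target gene of YAP and TGF-beta signalling, and MFAP4 is a microfibril protein of elastic fibres.

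The genes that chose the cells lie as follows in GRCm38. Cyp26b1 is on chromosome 6, from 84571414 to 84593908 on the minus strand. Col4a4 (82448423 to 82586849, minus strand) and Col4a3 (82586921 to 82722059, plus strand) stand head to head on chromosome 1. Only 71 bases lie between their annotated transcripts, and their starts are 72 bases apart. The whole gap, chr1:82586850-82586920, is shown because both genes are read outward from it. It is printed 5′ to 3′ on the minus strand, the direction of Col4a4, with a match to CCACCC on the opposite strand in capitals. The stretch just upstream of Cyp26b1, chr6:84593909-84594060 on the minus strand, is shown for comparison, with matches to TATAAA and to GGGCGG in capitals, the latter once on each strand.
Col4a4-Col4a3 gap: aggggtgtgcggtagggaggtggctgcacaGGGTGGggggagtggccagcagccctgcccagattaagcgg
Cyp26b1 upstream: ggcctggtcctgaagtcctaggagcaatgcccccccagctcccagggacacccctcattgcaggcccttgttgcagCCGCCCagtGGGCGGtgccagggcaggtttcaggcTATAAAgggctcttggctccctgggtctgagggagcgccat
Both sequences are from RefSeq's promoter windows and the gene bounds from GENCODE, both in GRCm38. The gap was 69.0% G and C and the Cyp26b1 stretch 65.1%. CCACCC, searched on both strands, was found in 10.5% of 32851 promoter windows at the length and position of the gap. The gap held no match to TATAAA, none to GGGCGG and none to CCAAT. The TATAAA match of Cyp26b1 began 41 bases upstream of the annotated start, and 7.38% of promoter windows of that length held TATAAA and 17.0% of them held GGGCGG. A match describes these letters only.

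Members numbered 568 in PBS, 1838 in EXO and 1080 in dEXO. In that order, which is kept throughout, their median depth was 5676.5, 2657.5 and 2372 UMIs, so a PBS member carried the most counts. Cyp26b1 was found in 99.6%, 99.7% and 99.4% of members, Col4a4 in 93.0%, 86.1% and 85% and Col4a3 in 62.9%, 46.2% and 48.1%. All 3 genes together were found in 60.4%, 42.3% and 43.7%. Cyp26b1 gave 78.3%, 78.7% and 75.2% of the UMIs of its set, so membership rested mostly on that gene. At the threshold, 5, 18 and 11 members had exactly 2 UMIs of the set, and 3, 3 and 2 cells that led with 1 UMI stayed outside. A lead of only 1 UMI over the next set held 51, 157 and 121 members, while 39, 135 and 119 cells were outside on a tie.

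A few barcodes stood apart from the rest. They drew at least 0.5% of their UMIs from 20 germ cell genes, and some were very deep. Among members these germ-RNA-rich barcodes were 1, 16 and 43 cells, but they held 0.0816%, 3.15% and 23.1% of all member UMIs. In the Mfap5 class, the most numerous of the other stroma, they held 12.2%, 43.3% and 67.7%. Values below are therefore given with and without them where they matter, a split chosen after the data had been seen. The CPM of a class includes them unless stated, so the Mfap5 class is scaled to a total that they partly fill. The libraries held 5514, 10228 and 9760 barcodes and 97253862, 91787154 and 96655663 UMIs. Each pair of libraries shared 19 barcode sequences, and none of the shared ones was a member in both libraries.

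The gates fixed part of the members' marker profile, since they asked for stromal genes and for no UMI of Ptprc, Pecam1 and Myh11. The sum of 8 stroma markers was 11435, 10572 and 8651 CPM (counts scaled to the same UMI total in each class and library, with 1000000 as that total), with all 8 detected. The Dlk1 class reached 25192, 22150 and 19403 CPM for the same sum. Acta2, the actin of smooth muscle and peritubular myoid cells, was at 3.69, 6.61 and 16.2 CPM in members against 1983, 7539 and 4785 in myoid cells, which numbered only 20, 11 and 15. Of 8 myoid markers, 2 were at 0 in each library, of which the gate itself set Myh11 to 0. Myl9, a myosin light chain, gave 370, 317 and 247 CPM of a sum of 523, 454 and 375. Markers of Sertoli cells, the nurse cells of the tubule, summed to 655, 1137 and 1093 CPM, against 13390, 12555 and 11506 CPM in Sertoli cells. Those of endothelial cells summed to 153, 204 and 147 CPM, against 1514, 1682 and 313 CPM in endothelial cells, and those of T or NK cells to 7.90, 23.1 and 35.7 CPM. Those of macrophages summed to 118, 167 and 292 CPM, and those of Leydig cells, the testosterone makers, to 2270, 1990 and 1364 CPM against 47185, 57415 and 48671 CPM in Leydig cells.

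Neither the retinoic acid enzyme nor the collagen chains were limited to members. Cyp26b1 stood at 3742, 4396 and 3412 CPM in members, 2251, 1934 and 1650 in the Thbd class, 843, 739 and 430 in the Mfap5 class and 692, 818 and 475 in the Dlk1 class. Col4a3 stood at 249, 242 and 246 CPM in members and at 232, 180 and 181 in the Thbd class. Col4a4 stood at 790, 950 and 882 CPM in members and at 798, 655 and 460 in the Thbd class. The Thbd class was thus near the members in PBS for both collagen chains, and its 49, 193 and 121 cells were the fewest of the 4 classes. In myoid cells Col4a4 reached 811, 3714 and 2322 CPM, and Col4a3 208, 1303 and 868 CPM, above members in EXO and dEXO. In T or NK cells Col4a4 was at 0.80, 6.11 and 3.55 CPM, the level that free RNA in the droplets can give.

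**Figure D1:**
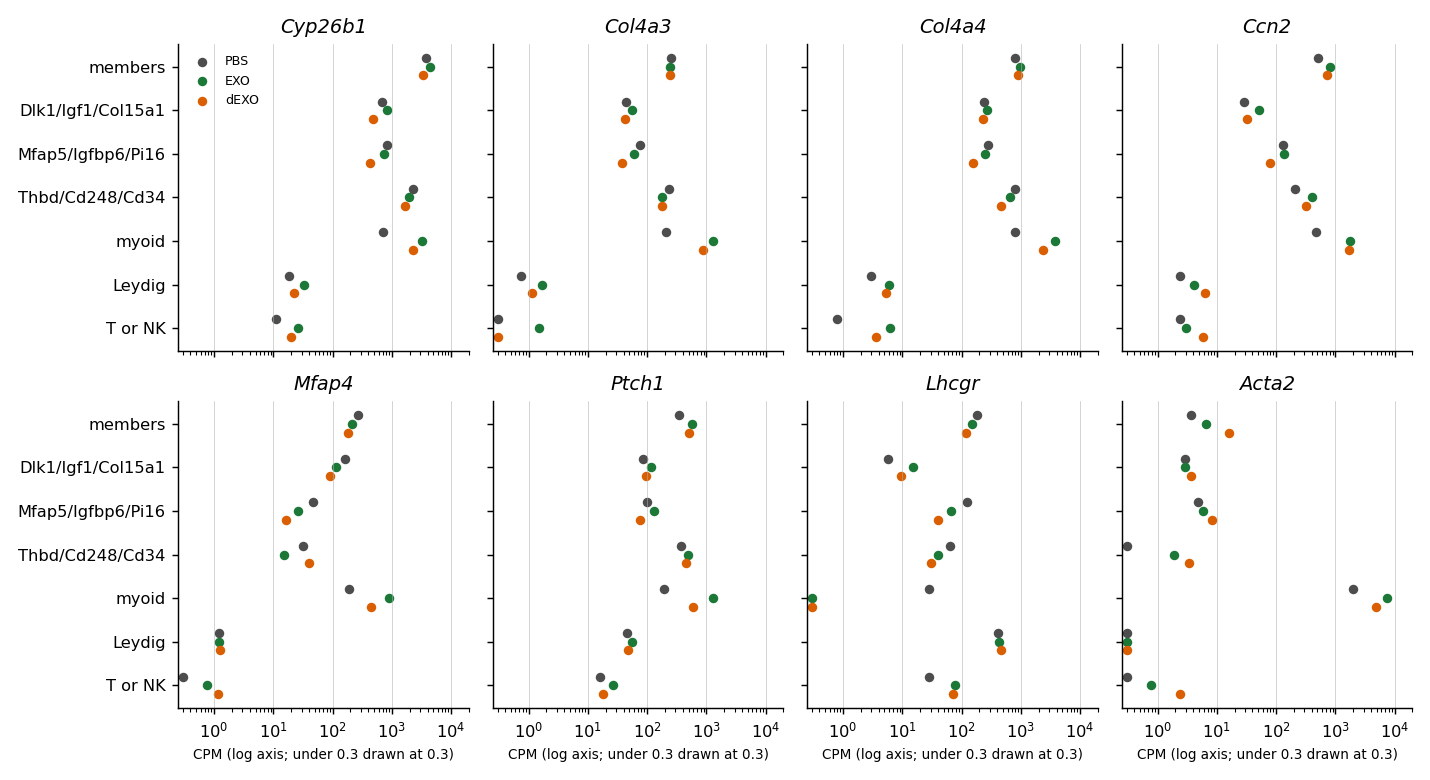
Levels of 8 genes (CPM of summed counts, log axis; values under 0.3 are drawn at 0.3) in members, the 3 other stromal classes and 3 kinds of reference cells, 1 point per library. Cyp26b1 was highest in members in PBS, EXO and dEXO, Acta2 was at most 16.2 CPM in members and at least 1983 CPM in myoid cells, and Lhcgr was higher in members than in the Dlk1 class.

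Ccn2 and Mfap4, which the label names but the rule did not use, differed in where else they were found. Ccn2 was at 507, 825 and 727 CPM in members, 208, 404 and 316 in the Thbd class and 29.2, 52.3 and 31.8 in the Dlk1 class. Mfap4 was at 263, 209 and 184 CPM in members, 161, 114 and 90.3 in the Dlk1 class and 31.9, 15 and 40.3 in the Thbd class. The next highest stromal class was therefore the Thbd class for Ccn2 and the Dlk1 class for Mfap4. With cells thinned to 2000 UMIs, Ccn2 was found in 37.9% (33.7 to 42.2), 55.4% (52.5 to 58.2) and 54.9% (51.0 to 58.7) of members and in at most 0.676% of T or NK cells. Mfap4 was found in 27.7% (23.9 to 31.8), 27.1% (24.6 to 29.7) and 25.9% (22.6 to 29.4) of members. In the Dlk1 class its share was 23.9% (19.1 to 29.3), 18.2% (14.6 to 22.3) and 15.2% (11.2 to 19.9), so the intervals overlapped in PBS. Intervals here and below are exact, at 95%, and cover counting error only.

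As a share of all kept cells, members were at 10.8% (9.95 to 11.6) in PBS, 18.6% (17.9 to 19.4) in EXO and 11.8% (11.2 to 12.5) in dEXO. Of the 4 stromal classes alone, they were 25.9% (24.1 to 27.8), 39.5% (38.1 to 40.9) and 35.6% (33.9 to 37.3). The Mfap5 class was 57.9%, 44.6% and 45.2% of the same cells. Members were thus a smaller share of the stroma in PBS than in EXO or dEXO by more than counting error, while as a share of all cells dEXO was close to PBS. With every cell thinned to 2000 UMIs, members were 10.3%, 17.0% and 10.3% of all cells. Spread between animals was not measured, and cell loss during dissociation cannot be told apart from a change in the tissue.

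**Figure D2:**
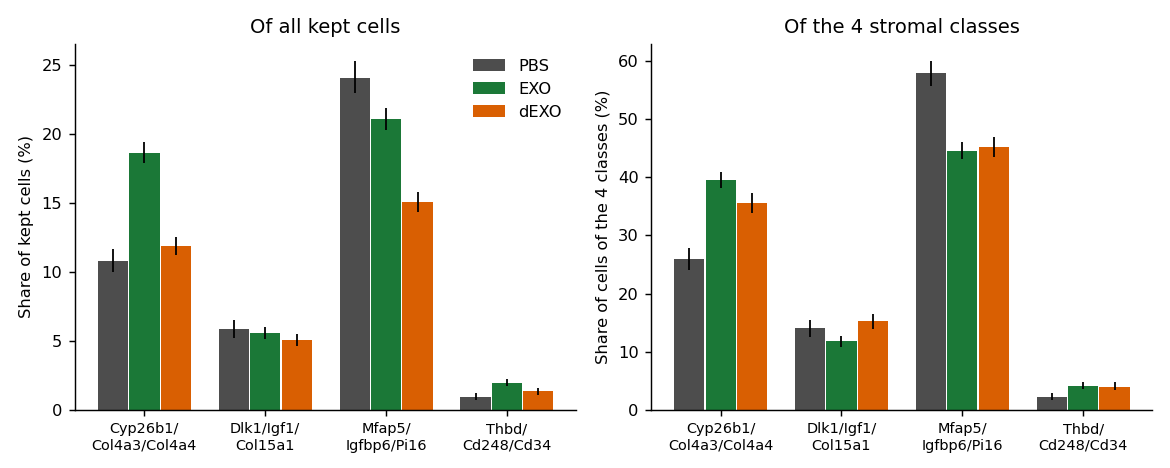
Share of each stromal class among all kept cells (left) and among the 4 stromal classes (right), in percent, with exact 95% counting intervals as error bars and 1 bar per library. The Cyp26b1/Col4a3/Col4a4 cells were 18.6% of EXO cells and 10.8% of PBS cells, and in the right panel they were higher in EXO and dEXO than in PBS.

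The 3 genes of the rule were found together within the stroma at large. Over 1911, 3116 and 1743 cells that still passed the stromal gates after thinning to 2000 UMIs, the odds of Col4a4 were 4.31-fold (3.43 to 5.44), 4.71-fold (3.88 to 5.72) and 4.58-fold (3.6 to 5.84) higher in cells with a Cyp26b1 UMI. Col4a3 and Col4a4 gave odds ratios of 2.68, 3.04 and 4.57. Col4a4 also went with genes that played no part in the choice of cells: the odds ratios were 3.15, 3.22 and 4.58 with Ccn2 and 2.47, 2.86 and 3.64 with Ptch1. With Mfap4 they were lower, at 1.23 (0.955 to 1.58), 1.57 and 1.86. With Igf1 they were 1.42, 1.2 and 1.16, and with Mfap5 1.31, 1.06 and 1.17. Cells of 1 library share that library, so these are descriptions.

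Compared with the other 3 stromal classes together, most basement membrane genes were higher in members. Of 25 measured genes of this list, with the rule's own chains left out, 20 were higher in all 3 libraries and 0 lower. The background was high, since 51% of the 12945 genes measured were higher in all 3 libraries and 28.7% lower. Without the germ-RNA-rich barcodes 15 were higher and 6 lower, against 44.3% and 20.5% of 11326 genes, and the list's median log2 ratio was 0.40, 0.26 and 0.33 against 0.14, 0.14 and 0.092 over all genes. The list as a whole was therefore a little above the median gene.

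Single members of the basement membrane stood out more than the list. Smoc2, a calcium-binding matricellular protein, was at 937, 936 and 677 CPM in members and 152, 143 and 108 in the Dlk1 class. With cells thinned as above, Smoc2 was found in 75.4%, 78.8% and 73.5% of members and 21.8%, 17.7% and 17.3% of the Dlk1 class. The other classes lay between, at 41.7%, 44.1% and 44.3% in the Mfap5 class and 51.2%, 45.5% and 44% in the Thbd class. The log2 ratio of Smoc2 to other stroma was 1.54, 1.91 and 2.08, and 1.38 (1.32 to 1.45), 1.37 (1.31 to 1.43) and 1.31 (1.22 to 1.39) without germ-RNA-rich barcodes. Col4a1, a chain of the ubiquitous type IV collagen, was at 843, 809 and 618 CPM, and its partner Col4a2 at 591, 574 and 432 CPM. Without those barcodes the ratio of Col4a1 was 0.79, 0.59 and 0.67 and that of Col4a2 0.76, 0.52 and 0.67. Lama2, the alpha chain of a laminin best known from muscle, was at 1294, 1216 and 1031 CPM, with a ratio of 0.84, 0.58 and 0.53.

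The remaining type IV chains did not follow Col4a3 and Col4a4. Col4a5, the third chain of that network, was at 154, 161 and 117 CPM in members and higher in the Dlk1 class, at 185, 213 and 192. Col4a6 was at 28.2, 31.0 and 23.1 CPM in members and at 48.1, 58.6 and 60.7 in the Dlk1 class. Nid1, which links laminin to collagen IV, stood at 401, 449 and 350 CPM, and Hspg2, the proteoglycan perlecan, at 372, 498 and 361 CPM. Their ratios to other stroma without germ-RNA-rich barcodes were 0.50, 0.34 and 0.40, and 0.46, 0.52 and 0.47. Of 21 fibrillar matrix genes, 9 were higher and 7 lower without those barcodes, when 44.3% of all genes were higher and 20.5% lower.

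Enzymes that make retinoic acid were found beside the one that degrades it. The CPM of Aldh1a1, a retinaldehyde dehydrogenase, include germ-RNA-rich barcodes, which weigh most in the Mfap5 class. Aldh1a1 was at 1723, 1913 and 1383 CPM in members, 1440, 930 and 468 in the Mfap5 class and 366, 549 and 389 in the Dlk1 class. Its ratio to other stroma without germ-RNA-rich barcodes was 0.26 (0.22 to 0.30), 0.49 (0.46 to 0.53) and 0.67 (0.62 to 0.72). Aldh1a3, of the same family, was at 78.7, 79.7 and 54.7 CPM and higher in the Dlk1 class, at 162, 157 and 157. Dhrs3, which turns retinaldehyde back into retinol, was at 58.5, 66.1 and 44.4 CPM. The receptor genes Rara (44.8, 53.9 and 39.0 CPM) and Rxra (89.3, 88.2 and 70.1 CPM) were present. Of the related degrading enzymes, Cyp26a1 was at 0, 0 and 0.514 CPM. Of 13 measured genes of this list, 7 were higher and 3 lower than in other stroma in all 3 libraries, when 51% of all genes were higher and 28.7% lower. Without germ-RNA-rich barcodes 4 of 12 were higher and 5 lower, when 44.3% of all genes were higher and 20.5% lower.

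Among genes of the hedgehog pathway, Ptch1, the receptor of hedgehog ligands and itself a target of the pathway, was at 352, 562 and 501 CPM in members, 86.4, 116 and 95.5 in the Dlk1 class and 101, 129 and 75.2 in the Mfap5 class. The Thbd class had as much, at 371, 491 and 457 CPM, and against it alone the PBS ratio turned to -0.08. Against the 3 classes together the log2 ratio was 1.75, 2.0 and 2.54, and 1.57 (1.46 to 1.68), 1.37 (1.29 to 1.45) and 1.58 (1.47 to 1.69) without germ-RNA-rich barcodes. Gli1, the transcription factor most used as a readout of the pathway, was at 45.3, 69.2 and 55.7 CPM in members and at 91.8, 97.4 and 94.1 in the Thbd class. Smo, the signal transducer, was at 111, 105 and 90.1 CPM. Of 6 measured genes 5 were higher than in other stroma in all 3 libraries, with and without those barcodes, against 51% and 44.3% of all genes.

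Over all genes, 284 of 12945 (2.19%) were 2-fold or more higher in members than in other stroma in all 3 libraries, and 1497 (11.6%) were 2-fold or more lower. Without germ-RNA-rich barcodes these numbers were 89 (0.786%) and 80 (0.706%) of 11326, so the count of lower genes depended on those barcodes. The 15 highest genes, ranked by the interval bound nearest 0, were Nalcn, C1qtnf3, Otof, Ccn2, Asb2, Slit1, Mfap4, Adcy7, Fmod, Alpl, Ptch1, Fbln5, Casq2, Atp2a3 and Ccn4. All 15 were higher without those barcodes too, with the lowest ratio at 1.30 for Fbln5 in dEXO.

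Several of these genes encode matrix proteins and others handle calcium or cyclic AMP. C1qtnf3, a secreted C1q and TNF related protein, was at 251, 293 and 208 CPM in members and 10.9, 18.6 and 25.2 in the Dlk1 class, with a ratio of 2.34, 2.38 and 2.45 without germ-RNA-rich barcodes. Adcy7, an adenylyl cyclase, was at 276, 387 and 308 CPM with ratios of 1.79, 1.81 and 1.82, and the Thbd class held 212, 219 and 205 CPM. Nalcn, a sodium leak channel, was at 42.7, 48.2 and 44.9 CPM against 6.24, 6.91 and 5.77 in other stroma. Asb2, which targets filamins for breakdown, was at 79.8, 101 and 70.6 CPM with ratios of 2.11, 2.37 and 2.60. Fbln5, which assembles elastic fibres, was at 348, 373 and 294 CPM, and Ccn4, a relative of Ccn2, at 183, 216 and 154 CPM. Casq2, a calcium store protein of heart muscle, was at 42.4, 36.9 and 31.6 CPM, and the calcium pump gene Atp2a3 at 18.4, 36.6 and 28.2 CPM. Gdnf, the growth factor that maintains spermatogonial stem cells, was scarce, at 5.27, 5.48 and 4.37 CPM in members against 1.25, 1.08 and 0.701 in other stroma.

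The genes lowest in members included secreted proteins that were abundant in the Dlk1 class. Without germ-RNA-rich barcodes they were Igfbp3, Vtn, Fst, Tppp3, Trf, Lgals3, Col6a5, Ppl, Lrg1 and Ly6c1. Igfbp3, a binding protein of insulin-like growth factors, was at 7.11, 2.42 and 6.42 CPM in members and at 214, 309 and 240 in the Dlk1 class. Fst, which captures activin, was at 5.79, 4.68 and 5.39 CPM against 96.7, 110 and 82.2 in that class. Des, the muscle intermediate filament, was not among these lowest genes. It was below the Dlk1 class alone, at 70.3, 61.5 and 46.5 CPM against 235, 199 and 150. The same held for Cxcl12, the chemokine ligand of CXCR4, at 309, 287 and 222 CPM against 770, 784 and 728. Before those barcodes were left out, the lowest genes after Igfbp3 were germ cell genes such as Tnp1, a transition protein of spermatids.

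**Figure D3:**
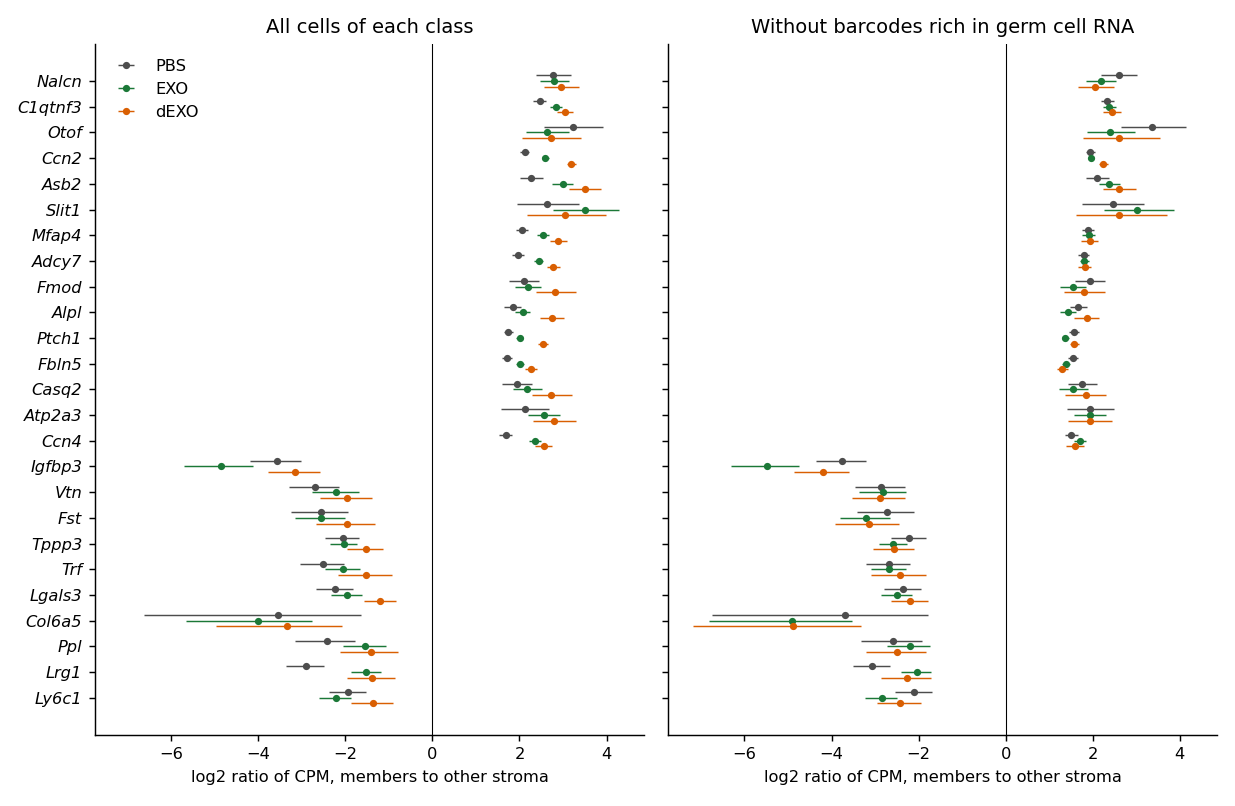
Log2 ratio of CPM in members to the 3 other stromal classes for the 15 highest genes and the 10 lowest genes without germ-RNA-rich barcodes, with 95% counting intervals, 1 point per library; the right panel leaves those barcodes out. All 15 upper genes lie above 0 and all 10 lower genes below 0 in both panels.

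Lhcgr, the receptor for luteinizing hormone and a marker of Leydig cells, was also found in members. It was at 180, 151 and 119 CPM in members, 123, 66.7 and 40.4 in the Mfap5 class, 63.9, 39.3 and 30.2 in the Thbd class, 5.72, 15.1 and 9.62 in the Dlk1 class and 408, 431 and 463 in Leydig cells. With cells thinned to 2000 UMIs, 19.8% (16.5 to 23.5), 17.5% (15.4 to 19.8) and 18.1% (15.2 to 21.2) of members had an Lhcgr UMI. In T or NK cells, which should lack the gene, the share was 2.43%, 3.14% and 3.38%, at median depths of 4114, 2661 and 2330 UMIs. The members' share was above that of T or NK cells, and that of the Dlk1 class, at 1.41%, 1.47% and 0.722%, was not. The Mfap5 class had an Lhcgr UMI in 11.4%, 10.0% and 8.55% of its cells. In macrophages Lhcgr stood at 282, 235 and 352 CPM, above members, so T or NK cells are not the only measure of free RNA. T or NK cells had also not passed the gate on Leydig enzymes, as members had. The part of free RNA in the members' Lhcgr was not tested.

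Insl3, a peptide hormone gene of Leydig cells, served as a measure of Leydig RNA in other cells. For each 1000 CPM of Insl3 there were 123, 118 and 139 CPM of Lhcgr in members, against 14.5, 10.8 and 15 in Leydig cells and 16.6, 10.1 and 12.1 in T or NK cells. The Thbd class gave 89.4, 39.3 and 34.4, the Mfap5 class 26.6, 23.8 and 47.7 and the Dlk1 class 25.2, 21.7 and 14.6. Members and these classes had passed the gate on Leydig enzymes, while Leydig cells and T or NK cells had not, so the ratios are a description. Among cells with no UMI of Cyp11a1, Cyp17a1, Hsd3b6, Insl3 or Star, an Lhcgr UMI was found in 11 of 84 members (13.1%, 6.72 to 22.2), 30 of 366 (8.20%, 5.60 to 11.5) and 28 of 291 (9.62%, 6.49 to 13.6). Cells of the Mfap5 class chosen in the same way gave 2.67%, 2.24% and 1.87%. The Thbd class in EXO gave 5 of 40 (12.5%, 4.19 to 26.8), so the signal was not limited to members.

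Within the members, Ptch1 was found less often in cells with an Lhcgr UMI than in cells without one. Over 520, 1232 and 669 members thinned to 2000 UMIs, the odds ratio of the pair was 0.54 (0.33 to 0.87), 0.63 (0.47 to 0.85) and 0.59 (0.39 to 0.91). Of members with Lhcgr, 34.4%, 51.3% and 50% had Ptch1, against 49.3%, 62.4% and 62.7% of those without. Lhcgr went with Smoc2 instead, at odds ratios of 2.13 (1.14 to 4.23), 1.57 (1.06 to 2.36) and 3.97 (2.11 to 8.15), and with C1qtnf3, at 1.98, 1.60 and 2.12. Ccn2 went with Ptch1, at 2.12 (1.46 to 3.09), 1.53 (1.21 to 1.94) and 1.86 (1.35 to 2.59). Smoc2 went with C1qtnf3, at 2.15, 2.46 and 2.35. Ccn2 and Lhcgr had no clear relation, with intervals that held 1 in each library (0.62, 0.92 and 1.08), while Ccn2 and Mfap4 gave 0.89, 1.21 and, in dEXO, 1.66 (1.15 to 2.41). These 12 pairs were chosen with the genes' levels known, and the cells of a library are not replicates.

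Between libraries, germ cell RNA moved with the group in these cells. The sum of 8 spermatocyte markers was 101, 552 and 2600 CPM in members, and 96.7, 330 and 797 CPM without germ-RNA-rich barcodes. Ldhc, the lactate dehydrogenase of germ cells, was at 73.5, 408 and 2160 CPM in members and at 946, 2826 and 4900 in other stroma. Germ cell genes were among those ranked highest in EXO against PBS, beside the cyclooxygenase gene Ptgs2 described below. Meioc, a meiosis regulator, was at 1.05, 17.7 and 28.8 CPM. Sycp2, of the synaptonemal complex, was at 2.11, 24.4 and 63.7 CPM. Cfap65, a flagellar protein, had 0, 112 and 141 UMIs. With each cell weighted equally, the log2 ratio of Meioc in EXO against PBS was 2.21 in place of 4.07, and that of Sycp2 4.52 in place of 3.53. Meioc and Sycp2 were in the same order in other stroma, at 3.33, 31.2 and 33.4 CPM and at 5.33, 47.5 and 71.1 CPM. The part of free RNA or of doublets in them was not tested.

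The median gene was itself shifted between libraries, by 0.21 on the log2 scale from PBS to EXO, 0.081 from PBS to dEXO and -0.12 from EXO to dEXO. Of 11959 genes, 8.51% were 2-fold or more higher and 0.393% 2-fold or more lower in EXO than in PBS, and 75% were higher by any amount against 25% lower. Relative to the median gene 6.92% were 2-fold or more higher and 0.753% lower, and 49.9% were higher and 50% lower by any amount. Without germ-RNA-rich barcodes 5.79% were 2-fold or more higher and 0.35% lower. In dEXO against PBS, 18.8% of 12046 genes were 2-fold or more higher and 1.2% lower, and 43.5% were lower by any amount, or 29.7% without those barcodes. In dEXO against EXO, 14.5% of 12948 genes were 2-fold or more higher and 1.02% lower, and 40.2% were higher by any amount against 59.8% lower. Without those barcodes 4.91% were 2-fold or more higher and 0.753% lower, and 51.7% were higher against 48.3% lower. The PBS library enters both of the first pairs, and each library enters 2 of the 3.

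Immediate early genes, transcribed within minutes of a stimulus, were highest in PBS members. Of 19 measured genes, 16 were lower in EXO than in PBS and 7 were 2-fold or more lower, against 25% and 0.393% of all genes, with a median log2 ratio of -0.88, or -1.09 relative to the median gene. In dEXO against PBS 17 of 18 were lower and 14 were 2-fold or more lower, against 43.5% and 1.2% of all genes, with a median of -1.19. Without germ-RNA-rich barcodes 15 of 18 were lower and 8 were 2-fold or more lower, against 29.7% and 0.509% of all genes, with a median of -0.92. Jun, of the AP-1 factor, was at 587, 131 and 160 CPM, a ratio of -2.17 (-2.29 to -2.05) in EXO and -1.88 (-2.01 to -1.75) in dEXO. Its partner Fos was at 626, 226 and 205 CPM, a ratio of -1.47 in EXO and -1.61 in dEXO. Junb was at 526, 267 and 176 CPM, and Socs3, an inhibitor of cytokine signalling, at 120, 35.8 and 38.0 CPM.

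The difference was also there at equal depth and in the Dlk1 and Mfap5 classes. With cells thinned to 2000 UMIs, Jun was found in 25.2% (21.5 to 29.2), 10.9% (9.19 to 12.8) and 15.1% (12.5 to 18) of members. The Dlk1 class had it in 68.3%, 47.2% and 49.5% of cells and the Mfap5 class in 56.9%, 32.5% and 35.6%. The small Thbd class showed no clear difference, at 37.2% (23.0 to 53.3), 32.7% (23.7 to 42.7) and 34.0% (21.2 to 48.8). Without germ-RNA-rich barcodes the list's median, EXO to PBS, was -0.57 in the Dlk1 class and -0.68 in the Mfap5 class, against -0.84 in members. Whether members differ from those classes in this was not tested. In each library members had less of this list than other stroma: without those barcodes 16 of 18 genes were lower in all 3 libraries and 10 were 2-fold or more lower, against 20.5% and 0.706% of all genes. With all barcodes 10 of 18 were lower in all 3 libraries and 0 were 2-fold or more lower, against 28.7% and 11.6% of all genes.

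Nr4a1 and a few other inducible genes had another pattern, with EXO the highest. Nr4a1, an orphan nuclear receptor, was at 85.6, 246 and 32.9 CPM in members. Its ratio was 1.52 (1.35 to 1.70) in EXO against PBS and -2.90 (-3.17 to -2.64) in dEXO against EXO, the latter -2.22 with each cell weighted equally. Sik1, a kinase induced by cyclic AMP, was at 17.6, 52.8 and 9.76 CPM, a ratio of -2.43 in dEXO against EXO that was -1.55 with each cell weighted equally and -1.82 after thinning. Errfi1, a feedback inhibitor of the EGF receptor, was at 157, 281 and 96.8 CPM. Ptgs2, the inducible cyclooxygenase, had 61 UMIs in EXO members and 1 in each of the others, a ratio of 5.22 (2.69 to 10.55) to PBS, or 3.18 with each cell weighted equally. In the other stroma Nr4a1 was at 81.2, 125 and 32.2 CPM, and in Leydig cells at 20.6, 220 and 10.6 CPM, also highest in EXO. With cells thinned to 2000 UMIs, Nr4a1 was found in 12.5%, 22.7% and 5.83% of members, 4.59%, 29.9% and 1.98% of Leydig cells and 17.0%, 19.7% and 14.9% of T or NK cells. The order was thus shared with Leydig cells, and the part of free RNA in it was not tested.

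**Figure D4:**
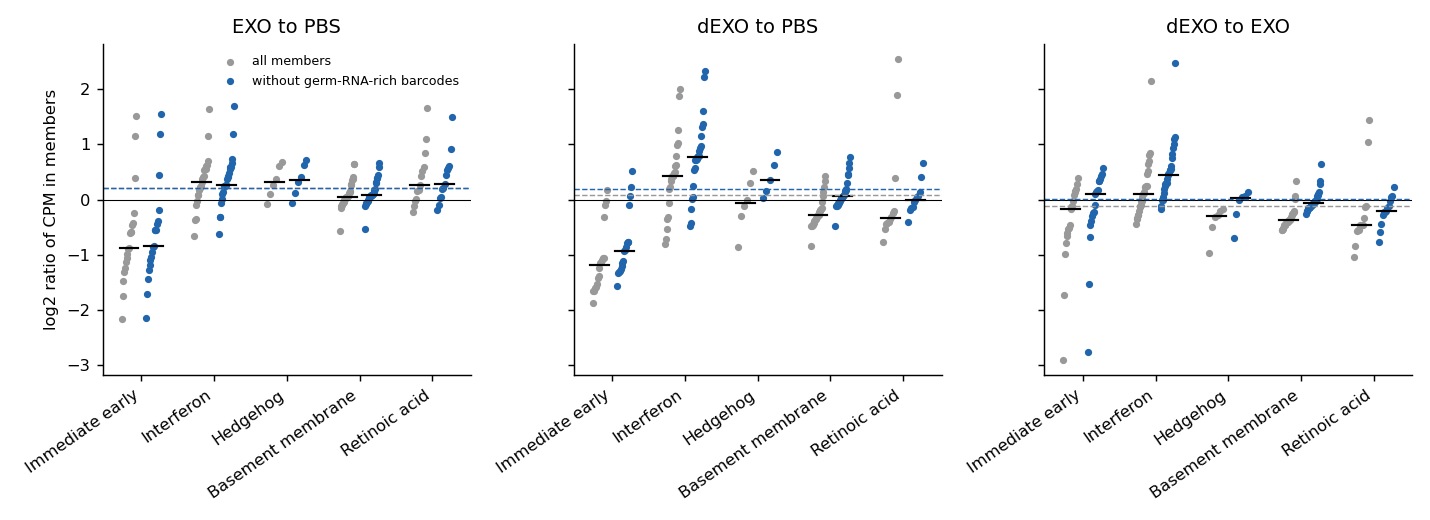
Log2 ratio of CPM in members for each measured gene of 5 lists, for the 3 pairs of libraries, with all members (grey) and without germ-RNA-rich barcodes (blue); black bars are list medians and dashed lines the median of all genes. Most immediate early genes lie below 0 in EXO and dEXO against PBS (16 of 19 and 17 of 18 with all members), and the interferon genes reach 2.33 in dEXO against PBS.

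Other named genes lower outside PBS were Lars2, Alas1, Fdx1 and C3. Lars2, the mitochondrial leucyl-tRNA synthetase, was at 1288, 293 and 466 CPM. Alas1, the first enzyme of haem synthesis, was at 400, 288 and 70.9 CPM, a ratio of -2.50 (-2.69 to -2.31) in dEXO against PBS, which was -1.76 with each cell weighted equally and -1.57 with cells thinned to 2000 UMIs. Fdx1, which feeds electrons to mitochondrial P450 enzymes, was at 755, 395 and 196 CPM, a ratio of -1.94 in dEXO against PBS and -1.29 after thinning. Leydig cells had the same order for Alas1, at 778, 570 and 174 CPM, while Fdx1 there was at 2614, 2652 and 1569 CPM. T or NK cells had Alas1 at 35.2, 123 and 31.9 CPM, and the part of free RNA in the members' level was not tested. C3, the complement component, was at 130, 78.1 and 32.4 CPM.

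Interferon-stimulated genes were more often higher than lower in dEXO members against PBS. Of 23 measured genes 17 were higher in dEXO than in PBS, against 56.5% of all genes, and 4 were 2-fold or more higher, near the 18.8% of all genes that were, with a median of 0.43. Without germ-RNA-rich barcodes 20 were higher and 6 were 2-fold or more higher, against 70.3% and 8.38% of all genes, with a median of 0.78. Against EXO, 15 of 26 were higher in dEXO and 11 lower, when 40.2% of all genes were higher and 59.8% lower. The list's median was 0.11, against -0.12 over all genes. Without those barcodes 22 of 26 were higher, when 51.7% of all genes were. Ifit1, an antiviral RNA-binding protein with close paralogs, was at 6.85, 15.3 and 27.5 CPM, a ratio of 2.0 (1.38 to 2.68). Isg15, a ubiquitin-like modifier, was at 12.4, 15.5 and 25.2 CPM. The Mfap5 class had a list median of 0.61 and the Dlk1 class 0.22 in the same comparison without those barcodes, and the difference between classes was not tested.

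The rule picked members by Cyp26b1, Col4a3 and Col4a4 within each library, so their ratios between libraries are given as a description only. Cyp26b1 had a ratio of 0.23 in EXO and -0.13 in dEXO against PBS, and with germ-RNA-rich barcodes left out 0.27 and 0.22, close to the median gene at 0.20 and 0.19. Col4a3 had ratios of -0.04 (-0.16 to 0.08) and -0.02 (-0.15 to 0.11), and in dEXO 0.32 (0.19 to 0.46) without those barcodes. Against PBS, Ccn2 was higher by 0.70 (0.63 to 0.78) in EXO and by 0.52 (0.44 to 0.60) in dEXO, or by 0.49 and 0.44 relative to the median gene. Ptch1 was higher by 0.68 (0.59 to 0.77) and 0.51 (0.41 to 0.61), or by 0.47 and 0.43 relative to the median gene. Of the 6 measured hedgehog genes 5 were higher in EXO and 2 in dEXO, against 75% and 56.5% of all genes. Without those barcodes all 5 measured in dEXO were higher, against 70.3% of all genes. The hedgehog list's median without those barcodes, in EXO and dEXO against PBS, was 0.36 and 0.36 in members. In the Mfap5 class it was 0.82 and 0.81, against 0.25 and 0.29 over all genes there. In the Dlk1 class it was 0.16 and -0.05. The shift was thus not limited to members, and the difference between classes was not tested. Sparc, an abundant collagen-binding protein, was lower, at 4884, 3289 and 2737 CPM. Basement membrane genes as a list had a median of 0.06 in EXO and -0.29 in dEXO (0.06 without those barcodes), and 0 of 25 were 2-fold or more apart in either. Of all genes, 8.51% were 2-fold or more higher and 0.393% lower in EXO, and 18.8% and 1.2% in dEXO.

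**Figure D5:**
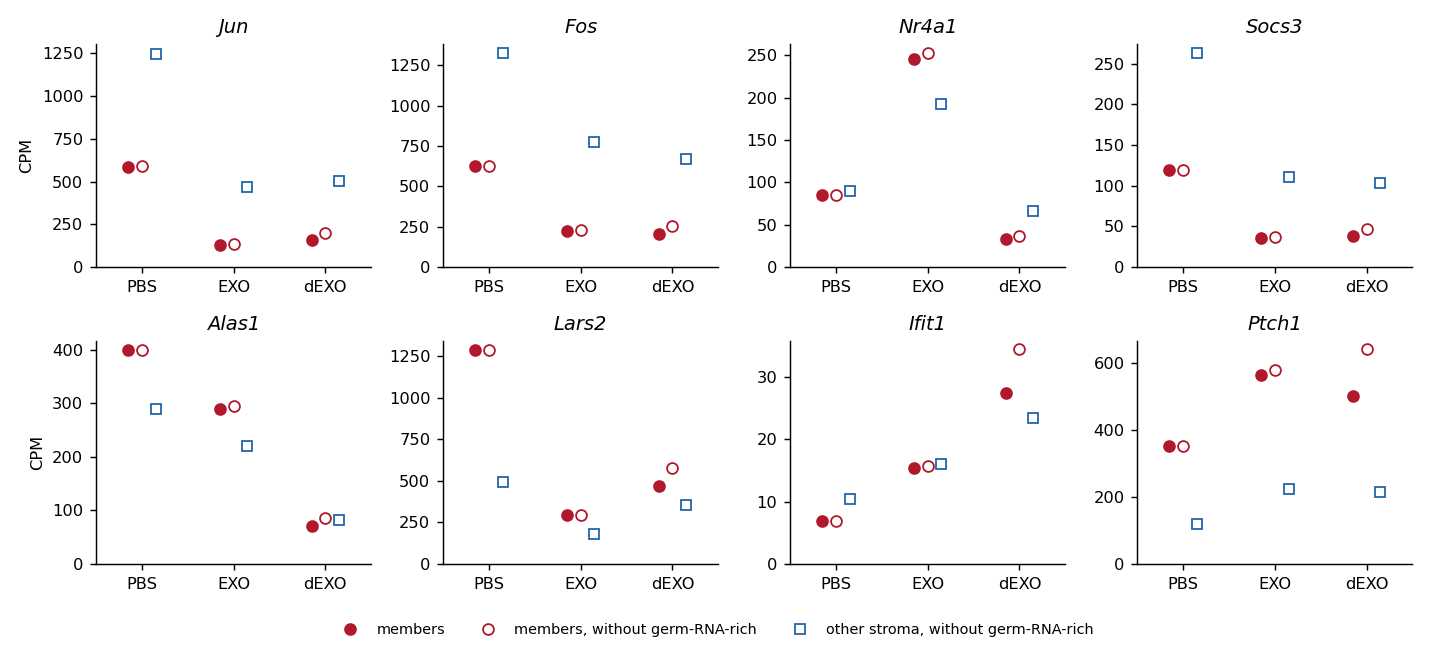
CPM of 8 genes in each library, in all members (filled circles), in members without germ-RNA-rich barcodes (open circles) and in the other 3 stromal classes without them (open squares), on axes that start at 0. In members Jun and Fos were highest in PBS, Nr4a1 was highest in EXO at 246 CPM, Alas1 was lowest in dEXO and Ptch1 was higher in members than in other stroma in PBS, EXO and dEXO.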

How the data were processed

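Per the labels' protocols, 3 testis libraries were made with 10x Genomics' 3' kit. The deposited matrices give a whole-number UMI count for each gene in each barcode. Per the file headers, the authors' counts came from Cell Ranger 5.0.1. Cell Ranger, Seurat and GRCm38 stand in the submitters' processing notes, with no role for each. The labels give testis as the tissue, while their extraction protocol speaks of aorta.

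A barcode was kept if it had 500 UMIs or more, 300 genes or more and no more than 20% of UMIs from mitochondrial genes. Members and gene lists were chosen with earlier results of these data known. Within each library the counts of a class were added up and scaled to CPM. Log2 ratios carry exact conditional binomial 95% intervals and shares exact Clopper-Pearson ones; a count of 0 took a floor of 3 counts. Genes needed 50 UMIs over both sums. Because 108 symbols stand for more than 1 gene, they were left out of the levels and of the CPM totals. Named genes were the rule's and label's genes, those of the lists used, the 15 highest and 10 lowest against other stroma and the 8 highest and 8 lowest per pair of libraries, ranked by the interval bound nearest 0. Ribosomal, mitochondrial, clone-named and gate genes were left out of these ranks, and so was a gene that, in the higher library, stood in members under 0.25 of its level in any reference cell type. The text gives a selection of them. No doublet caller was run; the highest 5% of UMIs were left out as an alternative. The ratio script was checked on simulated data. Computation used Python 3.11.15 with matplotlib 3.10.9, pandas 2.3.3, scipy 1.17.1 and numpy 2.4.6. Some genes are not reported here.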

Additional observations from a re-analysis of the deposited data

How the results depend on the processing

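No paired analysis was possible because each group was 1 library. For the same reason leaving out a replicate was not run. The split on germ cell RNA was chosen after seeing the data.

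Asking the Cyp26b1 set to lead by 2 UMIs gave shares of all cells of 9.81%, 17.0% and 10.5% in PBS, EXO and dEXO, and thinning to 2000 UMIs gave 17.0% in EXO and 10.3% in dEXO. Counts of genes 2-fold or more apart moved with several settings. Thinning also left out cells under 2000 UMIs and, with fewer UMIs in all, left 8919 of 11959 genes to measure from PBS to EXO, 7609 of 12046 from PBS to dEXO, 9564 of 12948 from EXO to dEXO and 8228 of 12945 against other stroma. From PBS to EXO, 1018 genes were higher and 47 lower. Relative to the median gene 90 were lower, after thinning 312 were higher and 25 lower, with a minimum of 20 UMIs 2036 and 100, with 200 UMIs 199 and 17, without the highest 5% of UMIs 543 were higher, and without germ-RNA-rich barcodes 678 were higher. From PBS to dEXO, 2263 were higher and 145 lower. With each cell weighted equally 60 were lower, after thinning 414 were higher and 25 lower, with 20 UMIs 264 were lower, with 200 UMIs 958 and 75, without the highest 5% 800 and 52, and without germ-RNA-rich barcodes 922 and 56. From EXO to dEXO, 1874 were higher and 132 lower. With each cell equal 1093 were higher, after thinning 326 and 49 were higher and lower, with 20 UMIs 324 were lower, with 200 UMIs 856 and 31, without the highest 5% 585 and 61, and without germ-RNA-rich barcodes 593 were higher.

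Against other stroma, 284 genes were higher and 1497 lower in all 3 libraries. With each cell equal these were 101 and 90, after thinning 62 and 59, without the highest 5% 78 and 91, without germ-RNA-rich barcodes 89 and 80, and against the Thbd class alone 50 and 68. Against the Dlk1 class alone 123 were lower.

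Single log2 ratios that turned were as follows. With each cell equal, Map7d2 turned to 1.12 in dEXO against EXO, and against other stroma BC048562 turned to 0.079 and Tmed6 to 0.44 in EXO, and Cdrt4 to 0.94 and Ubl4b to 0.89 in PBS. Without the highest 5%, BC048562 turned to 0.35 in EXO and 0.073 in dEXO, Iqcf1 to 0.26 in dEXO, Spata25 to 0.22 in EXO and Ubl4b to 0.061 in EXO and 0.12 in dEXO. Without germ-RNA-rich barcodes, BC048562 turned to 0.010 in EXO and 0.059 in dEXO, Iqcf1 to 0.31 and Ubl4b to 0.14 in dEXO. Lrg1 turned to 0.12 in EXO against the Dlk1 class, and Ptch1 to -0.078 in PBS against the Thbd class. The cause was not tested. Over single genes, 652 recomputed values moved less than their counting interval, 552 moved more and 17 turned.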

Other observations

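Further gene groups were counted in members against other stroma, without germ-RNA-rich barcodes and in all 3 libraries, where 44.3% of genes were higher and 20.5% lower. The CPM of single genes below include those barcodes. Of 10 measured receptors for basement membranes 7 were higher and 1 lower. Itga9, an integrin alpha chain, was at 192, 219 and 194 CPM in members, 200, 182 and 134 in the Thbd class and 26.9, 31.4 and 32.6 in the Dlk1 class. Itga1, the integrin chain that binds type IV collagen, was at 54.0, 70.2 and 66.0 CPM in members and 8.01, 9.87 and 13.3 in the Dlk1 class. Of 16 elastic fibre genes 7 were higher and 6 lower. Eln, the elastin gene itself, was at 48.7, 51.5 and 39.5 CPM in members and 114, 81.9 and 71.1 in the Dlk1 class. Of 10 target genes of YAP 4 were higher and 1 lower. Amotl2, one of them, was at 90.6, 113 and 88.3 CPM in members and 120, 93.6 and 60.5 in the Thbd class. Of 15 growth factor genes 3 were higher and 7 lower, and of 9 acute phase and chemokine genes 1 was higher and 6 lower. Lcn2, a secreted iron-binding acute phase protein, was at 254, 412 and 366 CPM in members and at 2288, 1274 and 380 in the Mfap5 class. Germ-RNA-rich barcodes held 12.2%, 43.3% and 67.7% of the UMIs of the Mfap5 class, and their part in these values was not tested.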
